A study of Mus musculus with 47 samples.

Results

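Blood coagulation and complement are cascades of plasma proteins in which 1 protease activates the next, and most of the proteins of both are made by hepatocytes and secreted. Coagulation ends with thrombin, the product of F2, cutting fibrinogen into fibrin, while serpins and the protein C system hold the proteases back and plasmin dissolves the clot. Complement is started by the classical, lectin or alternative route, meets at C3, and ends in the membrane attack complex that C6, C8 and C9 help to build. The genes described here are 37 of the 20456 in the count table, taken by symbol in 3 classes: 14 genes of coagulation and clot dissolution, 8 of their inhibitors and 15 of complement. All 37 passed the filter on low counts.

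The RNA came from liver, lung and brain of C57BL/6 mouse embryos at E18.5, in 47 libraries of 12 groups. By the numbers in the titles, most embryos gave all 3 tissues. The mutants were Daxx Y130A/Y130A embryos, in which a knock-in substitution lies in the part of Daxx that binds Atrx, and Daxx S226A/S226A embryos, in which it lies in the part that binds histone H3.3; each was compared with wild-type littermates from crosses of heterozygotes. Both alleles were made by CRISPR/Cas9 in C57BL/6N zygotes with additional silent changes, backcrossed to C57BL/6J and present in every cell, and the embryos of the S226A and the Y130A litters formed separate sets. Each group held 4 libraries, apart from the wild-type lung group of the Y130A litters, which held 3, and no litter of 1 set occurred in the other.

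Total counts ranged from 15722147 to 26190403 in the S226A litters and from 36351738 to 54885020 in the Y130A litters. Daxx itself gave mean normalized counts of 38.5 to 41.4 CPM (counts per library total, as scaled by edgeR) in the 4 liver groups. These counts show neither its changed codons nor its protein. The paper reports less Daxx protein in S226A and more in Y130A than in wild type, from embryonic fibroblasts and E18.5 lung. The hepatocyte markers summed to between 187400 and 284500 CPM in the 16 livers and to at most 1706 CPM in any lung. Transcripts of squamous epithelium stood at 1072 CPM in wild-type liver 2 of the S226A litters and at 711 CPM in Y130A liver 1, and at no more than 10.4 CPM in the other livers, so that liver results were also computed without these libraries. In whole tissue, fewer cells of a type and less RNA per cell cannot be told apart.

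The windows from 250 bases before to 50 bases after the start of transcription are printed for 4 genes, C6 because it was the member whose level changed, and the 3 fibrinogen genes because their products form 1 protein and their levels moved together across livers. They are RefSeq sequences on GRCm38.p6, written in the direction of transcription. Capitals mark GTTAAT, an arm of the palindromic site of the liver factor HNF1, and TTNNGCAA, a form of the C/EBP site, each searched on both strands, so that ATTAAC and TTGCNNAA stand for the other strand.
C6, chr15:4726960-4727259, plus strand: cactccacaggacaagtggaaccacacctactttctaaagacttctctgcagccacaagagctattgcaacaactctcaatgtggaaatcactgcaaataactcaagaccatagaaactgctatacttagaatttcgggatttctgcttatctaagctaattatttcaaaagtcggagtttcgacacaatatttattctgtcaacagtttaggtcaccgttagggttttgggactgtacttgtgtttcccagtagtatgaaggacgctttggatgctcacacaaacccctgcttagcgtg
Fga, chr3:83025903-83026202, plus strand: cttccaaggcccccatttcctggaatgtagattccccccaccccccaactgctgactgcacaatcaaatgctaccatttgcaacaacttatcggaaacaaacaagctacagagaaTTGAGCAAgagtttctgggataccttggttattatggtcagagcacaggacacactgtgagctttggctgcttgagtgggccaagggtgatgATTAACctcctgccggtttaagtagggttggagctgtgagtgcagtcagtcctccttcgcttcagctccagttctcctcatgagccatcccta
Fgb, chr3:83049814-83050113, minus strand: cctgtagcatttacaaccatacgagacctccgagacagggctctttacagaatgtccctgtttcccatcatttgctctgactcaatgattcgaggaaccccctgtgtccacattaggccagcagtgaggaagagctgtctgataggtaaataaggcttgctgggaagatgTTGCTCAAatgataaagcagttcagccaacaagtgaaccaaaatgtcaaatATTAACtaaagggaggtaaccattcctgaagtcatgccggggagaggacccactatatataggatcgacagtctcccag
Fgg, chr3:83007474-83007773, plus strand: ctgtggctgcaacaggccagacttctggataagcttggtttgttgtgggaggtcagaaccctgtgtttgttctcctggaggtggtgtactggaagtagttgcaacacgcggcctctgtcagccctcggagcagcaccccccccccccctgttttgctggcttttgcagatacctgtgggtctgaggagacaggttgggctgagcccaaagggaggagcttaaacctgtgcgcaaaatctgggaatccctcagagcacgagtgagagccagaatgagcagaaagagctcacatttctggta

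Fga and Fgb held both motifs, ATTAAC starting at -43 and -29 and the C/EBP form at -135 and -80 from the start site, while neither was present in these windows of C6 and Fgg. Windows were matched by symbol for 28 of the 37 genes, the others being C2, C4b, Cfb, Cfi, Kng1, Masp1, Plg, Proc and Serping1. GTTAAT was found in 7 of them (25.0%), namely F2, F13b, Fga, Fgb, C8a, C8b and C4bp, and in 7.1% of all 32851 windows. TTNNGCAA was found in 10 of them (35.7%), against 10.8% of all windows. Other letters searched were CAAAGTCCA, a form of the HNF4 site, found in 0 of 28 and 0.475% of all, TATAAA, found in 3 of 28 and 13.6% of all, and GAGGAAG, a form of the site of the myeloid factor PU.1, found in Fgb alone and in 13.6% of all. A member was scored as holding the letters if any of its windows did, while the share of all was taken over single windows. The shares are thus not in the same unit. A match is only a description of the letters.

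In wild-type embryos the class was above all a liver class. Against wild-type lung, 35 of the 37 genes were higher in liver and 2 lower, and against wild-type brain all 37 were higher (edgeR's quasi-likelihood test, adjusted p below 0.05), where 80.1% and 87.3% of all 16892 genes tested were called in either direction, and 37.8% and 41.8% were higher in liver, and 42.3% lower than in lung. The median log2 difference of the 37 was 9.13 against lung and 10.62 against brain, beside -0.08 for all genes tested in both comparisons. Between genes, levels are compared per length, as FPKM (CPM divided by the exon length in kilobases; n = 8 wild-type livers), and ranged from 5370 FPKM for Fga to 3.25 FPKM for Cfb.

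The fibrinogen genes led the order, with Fga at 5370 ± 809 FPKM (SD), Fgg at 5094 ± 786 and Fgb at 3869 ± 846, and the ranges of neighbours among these 3 overlapped. C3, the protein at which the complement routes meet, followed at 2255 ± 214 FPKM, then Kng1 (kininogen, a source of bradykinin) at 1336 ± 143 and Plg (plasminogen) at 826 ± 65.9, and none of these overlapped the next in order. Serpinf2, the inhibitor of plasmin, stood at 521 ± 26.9 FPKM beside F2 at 482 ± 27.5. From there down past F9, the factor lacking in hemophilia B (17.8 ± 2.16 FPKM), to Pros1 (12.4 ± 1.24 FPKM), each gene's range overlapped that of the next. At the foot, overlapping each other but not Pros1, were C9 at 4.803 ± 2.58, C2 at 3.63 ± 0.716, C6 at 3.37 ± 0.783, C4bp at 3.34 ± 0.981 and Cfb, the protease of the alternative route, at 3.25 ± 0.552. These 5 complement genes had the lowest levels of the class, and C3 the highest after fibrinogen.

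**Figure D1:**
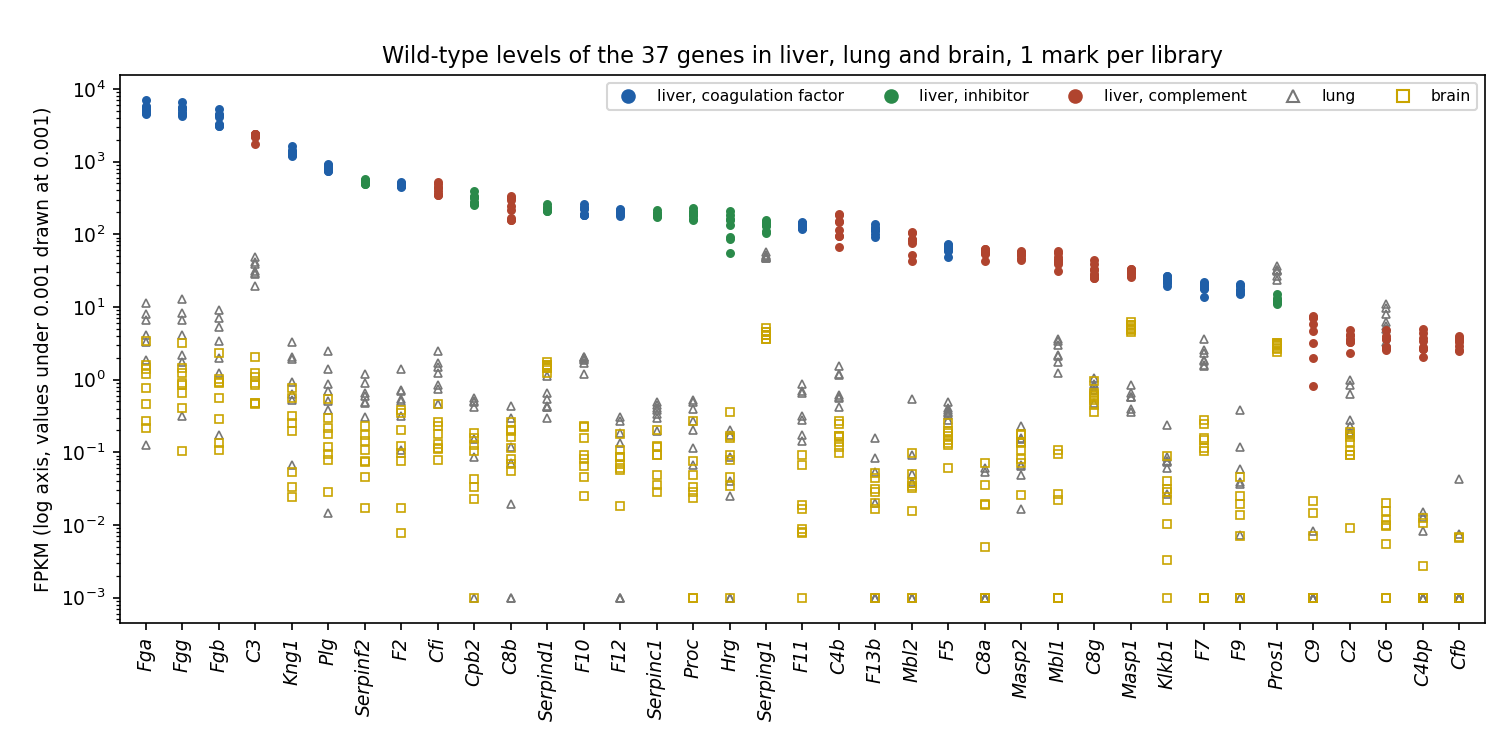
Level of each of the 37 genes in every wild-type library of liver (filled circles, coloured by class), lung (triangles) and brain (squares), in FPKM on a log axis, ordered by the mean in liver. Liver lies above lung for all genes but Pros1 and C6, from 5370 FPKM for Fga to 3.25 FPKM for Cfb.

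Members that stood apart from this pattern were few. Pros1, the cofactor of activated protein C, was lower in liver than in lung by 1.32 (log2; 12.4 against 30.7 FPKM), and C6 was lower by 0.90 (3.37 against 6.92 FPKM). Serping1, the C1 inhibitor, was higher in liver by 1.44 only, at 134 FPKM against 49.6 ± 3.48 FPKM in lung. The smallest differences from brain were those of Pros1, 2.11 higher in liver, and Masp1, a protease of the lectin route, 2.53 higher than in brain, where it stood at 5.24 FPKM. C3 reached 34.0 ± 9.69 FPKM in lung. Within the 4 liver groups the pooled SD on the log2 scale was lowest for Serpinc1 (antithrombin, 0.08) and Serpind1 (0.09) and highest for C9 (0.75), which ranged from 2.09 to 19.4 CPM in wild-type livers, and Hrg (0.56), which ranged from 109.9 to 417.6 CPM. It was below 0.3 for 31 of the 37.

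In S226A liver, 1 of the 37 genes changed: C6, a component of the membrane attack complex, was lower. No gene of coagulation (0 of 14) and no inhibitor (0 of 8) passed the test, while 1 of 15 complement genes did. With litter as a block the inhibitor Hrg was called too (log2 fold change -0.57, adjusted p 0.00949 in edgeR, where 10.7% of all genes were called). Of all 16892 genes tested, 11.7% were called in this comparison, 5.54% of them as lower and 6.14% as higher, and 1 of 37 is the smaller share. The other 36 genes had an adjusted p of at least 0.304 in edgeR, and 0 of 36 an unadjusted p below 0.05, which 24.7% of all genes had. DESeq2 also called C6 alone, where it called 15.2% of all genes.

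C6 (chr15:4727175-4814967 on GRCm38, plus strand) was counted in 16.95, 9.07, 10.1 and 14.3 CPM in the wild-type livers of the S226A litters and in 1.98, 1.11, 0.433 and 2.72 CPM in the S226A livers. Every S226A liver lay below every wild-type liver, and the groups did not overlap. The means were 12.6 ± 3.68 and 1.56 ± 0.999 CPM (SD, n = 4 each), from 138 to 276 reads against 7 to 41 reads. The log2 fold change was -3.05 ± 0.32 (SE), an 8.28-fold lower level, with a 95% interval from -3.69 to -2.40 and an adjusted p of 2.35e-09 in edgeR. Within litters C6 was lower in 4 of 4, by 2.2 to 3.51 on the log2 scale. These differences were taken after 0.5 CPM was added to each value, which makes them smaller at such low levels. With litter as a block C6 was lower by 3.12 (adjusted p 1.08e-05 in edgeR). Without wild-type liver 2, which held squamous transcripts, the call was also made, and over all alternatives the log2 fold change lay between -3.44 and -2.74.

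The change of C6 differed between the mutants and between tissues. Y130A livers held 9.92, 11.2, 12.2 and 8.11 CPM of C6 and their wild-type littermates 13.1, 9.54, 9.91 and 12.8 CPM. These groups overlapped, with a log2 fold change of -0.13 (95% interval -0.66 to 0.39). The difference between the mutants, tested as an interaction, was -2.91 (adjusted p 6.26e-06 in edgeR), and C6 was the 1 of 37 called there, where 5.9% of all genes were.

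In lung, where C6 was higher than in liver, the wild-type libraries of the S226A litters held 38.6, 21.8, 34.8 and 28.3 CPM and the S226A libraries 46.0, 22.6, 26.4 and 38.8 CPM. The lung groups overlapped widely, with a log2 fold change of 0.12 (95% interval -0.40 to 0.63). The change in S226A liver minus that in S226A lung was -3.16 (adjusted p 6.14e-07 in edgeR), again for C6 alone of the 37, against 6.9% of all genes. DESeq2 called 3 members there, where it called 10% of all genes: C6 (-3.14), Klkb1 (-1.15) and Cfb (-3.42, where the lungs held at most 0.233 CPM). In brain C6 stood at no more than 0.0826 CPM in any library of the S226A litters. Of the 8 genes tested within 500 kb of C6, C6 was the 1 called in S226A liver, and its neighbour C7, the next protein of the same complex, was near absent from liver (0.164 CPM in wild type, 0.264 in S226A).

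**Figure D2:**
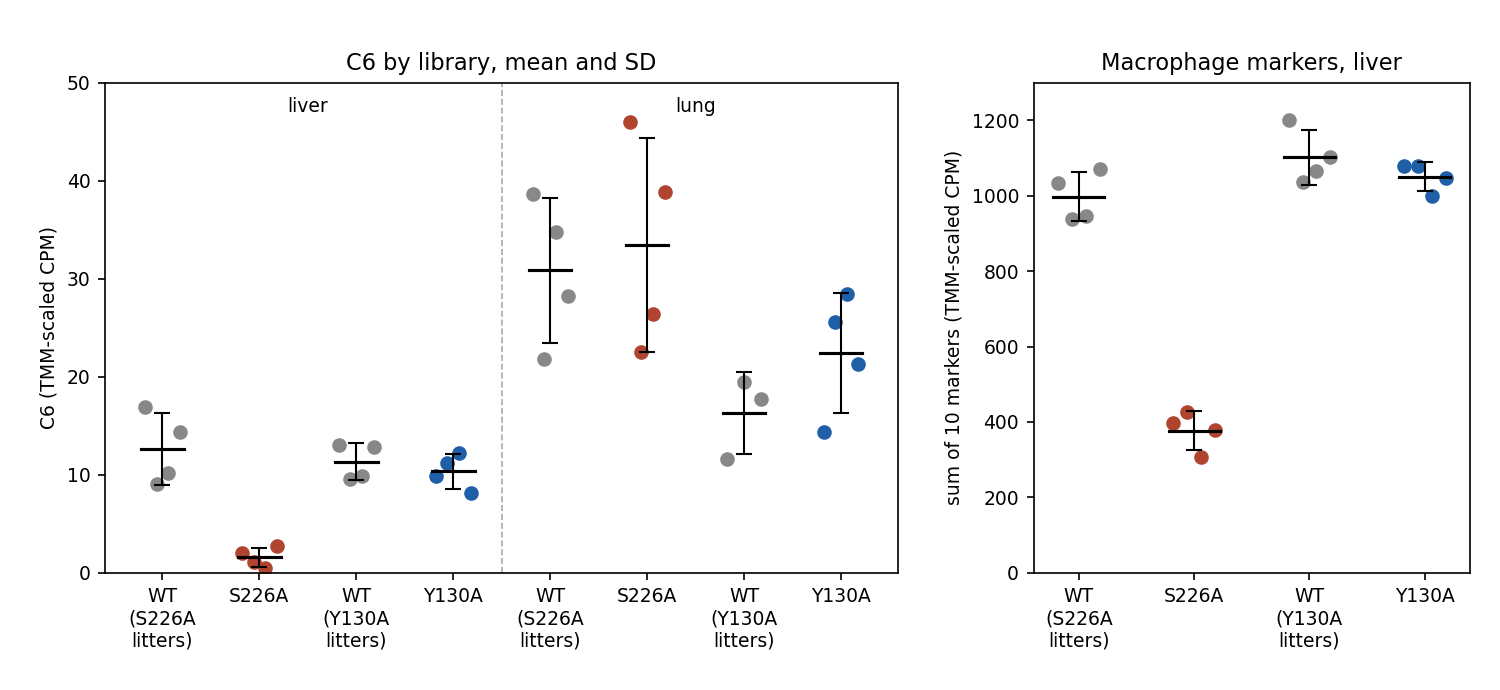
Left, C6 in CPM in every library of liver and lung; right, the sum of 10 macrophage markers in CPM in every liver; the long bar is the mean and the whiskers are the SD, n = 4 libraries a group but 3 for the wild-type lungs beside Y130A. C6 lies at 0.433 to 2.72 CPM in S226A liver, below its wild type, while the lung groups overlap, and the macrophage sum lies at 306 to 427 CPM in S226A liver, below the other liver groups.

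Markers of macrophages moved with C6. In S226A liver 9 of 10 were lower, Marco alone not passing the test, and their sum was 306 to 427 CPM against 940 to 1072 CPM in wild-type littermates, without overlap. Clec4f, a lectin of Kupffer cells, was lower by 8.42 on the log2 scale and stood at 0.133 to 0.739 CPM, Cd163 was lower by 5.33 and Timd4 by 4.66. The level of C6 was 8.28-fold lower in the same livers, and the part of macrophages in that change was not tested. Endothelial markers were also lower in S226A liver in 3 of 9 (Cdh5, Pecam1 and Stab1), with sums of 834 to 1140 CPM against 1259 to 1381 CPM, and the stellate and mesenchyme markers, 0 of 9 called, summed to 1244 to 1466 CPM against 1496 to 1984 CPM, both without overlap. Their part was not tested either. In Y130A liver 0 of 10 macrophage markers were called, and their sums of 999 to 1080 CPM overlapped the wild type. In S226A lung 3 macrophage markers were higher and 3 lower, with sums of 204 to 220 CPM against 235 to 272 CPM.

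No other terminal component of complement passed the test. C9, which forms the pore, stood at 13.6, 21.99, 12.2 and 9.95 CPM in S226A liver and at 2.09, 18.01, 5.10 and 12.1 CPM in wild type, with wide overlap (log2 fold change 0.63, 95% interval -0.30 to 1.57). Hc, which encodes C5, was at 772 CPM against 856 CPM (log2 fold change -0.15, adjusted p 0.728 in edgeR; this gene and C7 are not among the 37 and were picked after their values were seen). The 3 chains of C8 had log2 fold changes of -0.10 (C8a), 0.03 (C8b) and 0.21 (C8g).

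By library, C8a was at 56.2, 45.7, 52.0 and 63.4 FPKM in S226A liver and at 61.8, 59.0, 54.5 and 56.8 FPKM in its wild type. C8b was at 176, 141, 187 and 203 FPKM against 157, 215, 155 and 167 FPKM. C8g was at 27.3, 30.2, 34.0 and 38.5 FPKM against 24.7, 28.3, 31.7 and 27.7 FPKM. S226A and wild type overlapped for each chain, and the beta chain had the highest level of the 3 in all livers. In the Y130A litters, C8a was at 48.8, 61.0, 63.0 and 59.4 FPKM in mutant and 56.3, 62.1, 53.8 and 42.9 FPKM in wild-type liver. C8b was at 343, 328, 277 and 339 FPKM against 339, 316, 243 and 294 FPKM, and C8g at 41.8, 39.6, 30.2 and 35.8 FPKM against 44.2, 33.1, 24.6 and 39.1 FPKM. These overlapped too. The ratio of C8b to C8a was 2.54 to 3.65 in the 8 livers of the S226A litters and 4.39 to 7.04 in the 8 livers of the Y130A litters, so that the sets did not overlap.

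The early complement genes among the 37 were likewise uncalled in S226A liver. The lectin route gave log2 fold changes of 0.24 for Mbl1 and -0.04 for Mbl2, the mannose-binding lectins, and of -0.11 for Masp1 and -0.18 for Masp2, their proteases. The regulators Cfi and C4bp gave -0.02 and 0.14, and C3 gave 0.09 (95% interval -0.61 to 0.78). C4b, Cfb and C2 are the members nearest to Daxx, at 0.81, 0.94 and 0.95 Mb from it on chromosome 17. C4b was at 1164, 744, 870 and 993 CPM in S226A liver and at 1077, 536, 1048 and 847 CPM in its wild type. Cfb was at 12.6, 8.27, 11.6 and 15.3 CPM against 10.4, 9.86, 7.19 and 11.1 CPM, and C2 at 25.5, 23.6, 18.4 and 17.6 CPM against 13.9, 15.7, 18.4 and 16.1 CPM. The groups overlapped for all 3 genes, with log2 fold changes of 0.10, 0.31 and 0.41.

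In the Y130A litters C4b was at 500, 656, 703 and 689 CPM in mutant and at 656, 543, 868 and 378 CPM in wild-type liver. Cfb was at 10.8, 8.55, 9.96 and 9.35 CPM against 8.07, 10.5, 9.18 and 7.06 CPM, and C2 at 14.0, 17.1, 9.96 and 10.7 CPM against 12.9, 9.13, 13.7 and 12.6 CPM. These overlapped as well, with log2 fold changes of 0.06, 0.15 and 0.10. C4b is nearly identical to C4a, and C2 adjoins Cfb, so that counts of these genes are uncertain in how reads were shared.

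Coagulation genes in S226A liver had log2 fold changes from -0.22 (F2) to 0.09 (F10), with a median of -0.12. F2, prothrombin, was at 2028, 1517, 1849 and 2011 CPM in S226A and at 2131, 2069, 2346 and 2107 CPM in wild type. All S226A values lay below all wild-type values, the only such case beside C6, where 11.9% of all genes did not overlap, and the difference did not pass the test (adjusted p 0.824 in edgeR; 0.18 in a fit of the 16 livers alone). The other vitamin K-dependent factors, F7, F9 and F10, gave -0.09, -0.12 and 0.09. The contact factors F11, F12, Klkb1 (prekallikrein) and Kng1 gave 0.00, -0.17, -0.15 and -0.11, the cofactor F5 gave 0.07, F13b, which carries the cross-linking enzyme, gave -0.02, and Plg gave -0.16.

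Fibrinogen, the substrate of the clot, is assembled from the products of 3 genes. Fga was at 4454, 3209, 4424 and 4802 FPKM in S226A liver and at 4954, 4692, 4576 and 4929 FPKM in its wild type. Fgb was at 3186, 2190, 2995 and 3207 FPKM against 3287, 3186, 3055 and 3048 FPKM, and Fgg at 4324, 2894, 4188 and 4465 FPKM against 4701, 4497, 4286 and 4478 FPKM. S226A liver 2 was the lowest of the 8 for each chain, and the other S226A livers lay near the wild type, so that the groups overlapped. In the Y130A litters Fga was at 6523, 6946, 5072 and 6876 FPKM in mutant and at 7059, 5709, 5759 and 5285 FPKM in wild-type liver. Fgb was at 4813, 5236, 3972 and 5237 FPKM against 5316, 4533, 4368 and 4156 FPKM, and Fgg at 6066, 6487, 5264 and 6445 FPKM against 6651, 5404, 5600 and 5134 FPKM. These overlapped as well. Over the 16 livers Fga ranged from 3209 to 7059 FPKM, while its ratio to Fgb was between 1.26 and 1.62 and that of Fgg to Fgb between 1.19 and 1.47. The ratio of Fga to Fgb was higher in every liver of the S226A litters, mutant or wild type (at least 1.40), than in any liver of the Y130A litters (at most 1.36). In the fit of the 16 livers, S226A gave -0.17 for Fga (95% interval -0.44 to 0.09), -0.11 for Fgb and -0.17 for Fgg.

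**Figure D3:**
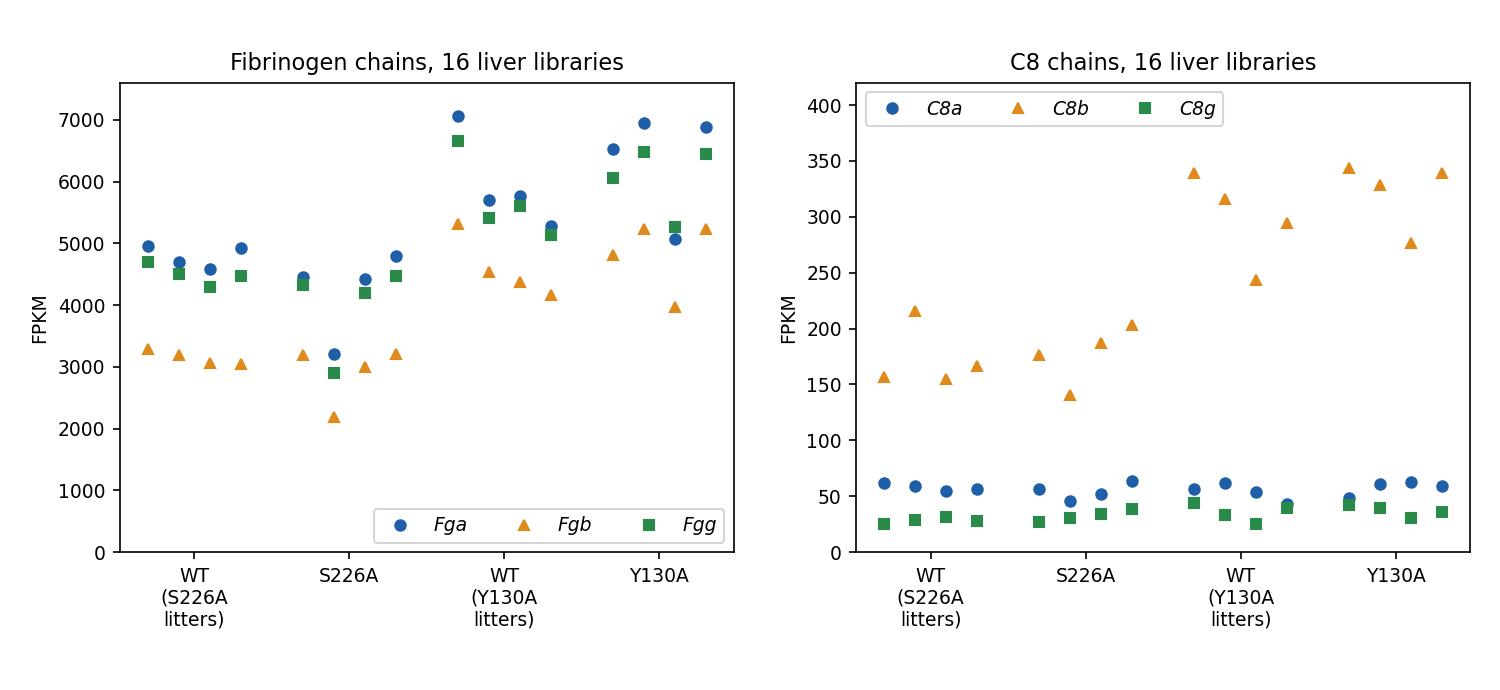
Level in FPKM of the 3 fibrinogen chains (left) and the 3 C8 chains (right) in each of the 16 liver libraries, 4 a group, in the order of the library numbers. The fibrinogen chains rise and fall together from library to library, lowest in S226A liver 2, and C8b differs between the litter sets (141 to 215 against 243 to 343 FPKM) while C8a overlaps.

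No inhibitor passed the test. Their median log2 fold change in S226A liver was -0.06, with Serpinc1 at -0.16, Serpind1 (heparin cofactor II) at 0.08, Serpinf2 at -0.12, Serping1 at 0.09, Proc (protein C) at -0.08, Pros1 at 0.10 and Cpb2, which slows clot dissolution, at -0.03. Hrg, a plasma glycoprotein that binds heparin and plasminogen, was the exception in size, at 330, 122, 225 and 273 CPM in S226A against 364, 264, 418 and 318 CPM in wild type. The groups overlapped, but in each litter the S226A liver was the lower. Its log2 fold change was -0.52 (adjusted p 0.304 in edgeR), and it passed the test with litter as a block, as given above. Other genes lower in 4 of 4 litters, C6 aside, were F2, Fga, Klkb1 and Serpinc1, and C8g, Mbl1 and Pros1 were higher in 4 of 4. None of these 7 was called with litter as a block, and the share of all genes with 1 direction in 4 of 4 litters is not given.

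The interval of each change says what was measurable. Leaving out C6, 26 of 36 genes had a 95% interval within 2-fold of no change in S226A liver and 13 within 1.5-fold, and the widest were those of fibrinogen (Fga -1.78 to 1.42). The fit across all 47 libraries takes its spread from lung and brain too, where most of these genes are far lower, and the median SE of the 36 was 0.26, against 0.11 in a fit of the 16 livers. In the latter 34 of 36 lay within 2-fold and 31 within 1.5-fold, and C6 was the 1 gene called (8.61% of all genes). An unadjusted p below 0.05 was reached there by 4 of the 36, F2, Serpinc1, Mbl1 and C2, beside 20.4% of all genes, with a lowest adjusted p of 0.145 in edgeR. With scaling to the summed hepatocyte markers the median log2 fold change of all genes was 0.135, against -0.016 in the fit of the 16 livers, and this scaling added 2 calls, where 10.6% of all genes were called, F10 (0.23, adjusted p 0.0427 in edgeR) and Mbl1 (0.40, adjusted p 0.0338), both higher.

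S226A liver 2 held the lowest summed level of the 37 genes, 50990 CPM, beside 62980 to 68720 CPM in the other S226A livers and 65780 to 69510 CPM in wild type. Against its littermate 26 of 37 genes were lower, with a median of -0.24, and for S226A liver 3 it was 25 of 37, with a median of -0.07. In S226A livers 1 and 4, 16 and 14 were lower, with medians of 0.03 and 0.09. The hepatocyte marker sum of S226A liver 2 was also the lowest, 187400 CPM against 207300 to 221800 CPM in the other S226A livers and 227000 to 234200 CPM in wild type. None of the 20 hepatocyte markers, 12 erythroid markers or 23 liver transcription factors was called in S226A liver, while 11 of 11 granulocyte markers were higher, with sums of 9197 to 9939 CPM against 3167 to 3786 CPM, and the part of these shifts in the small changes of the 36 genes was not tested.

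**Figure D4:**
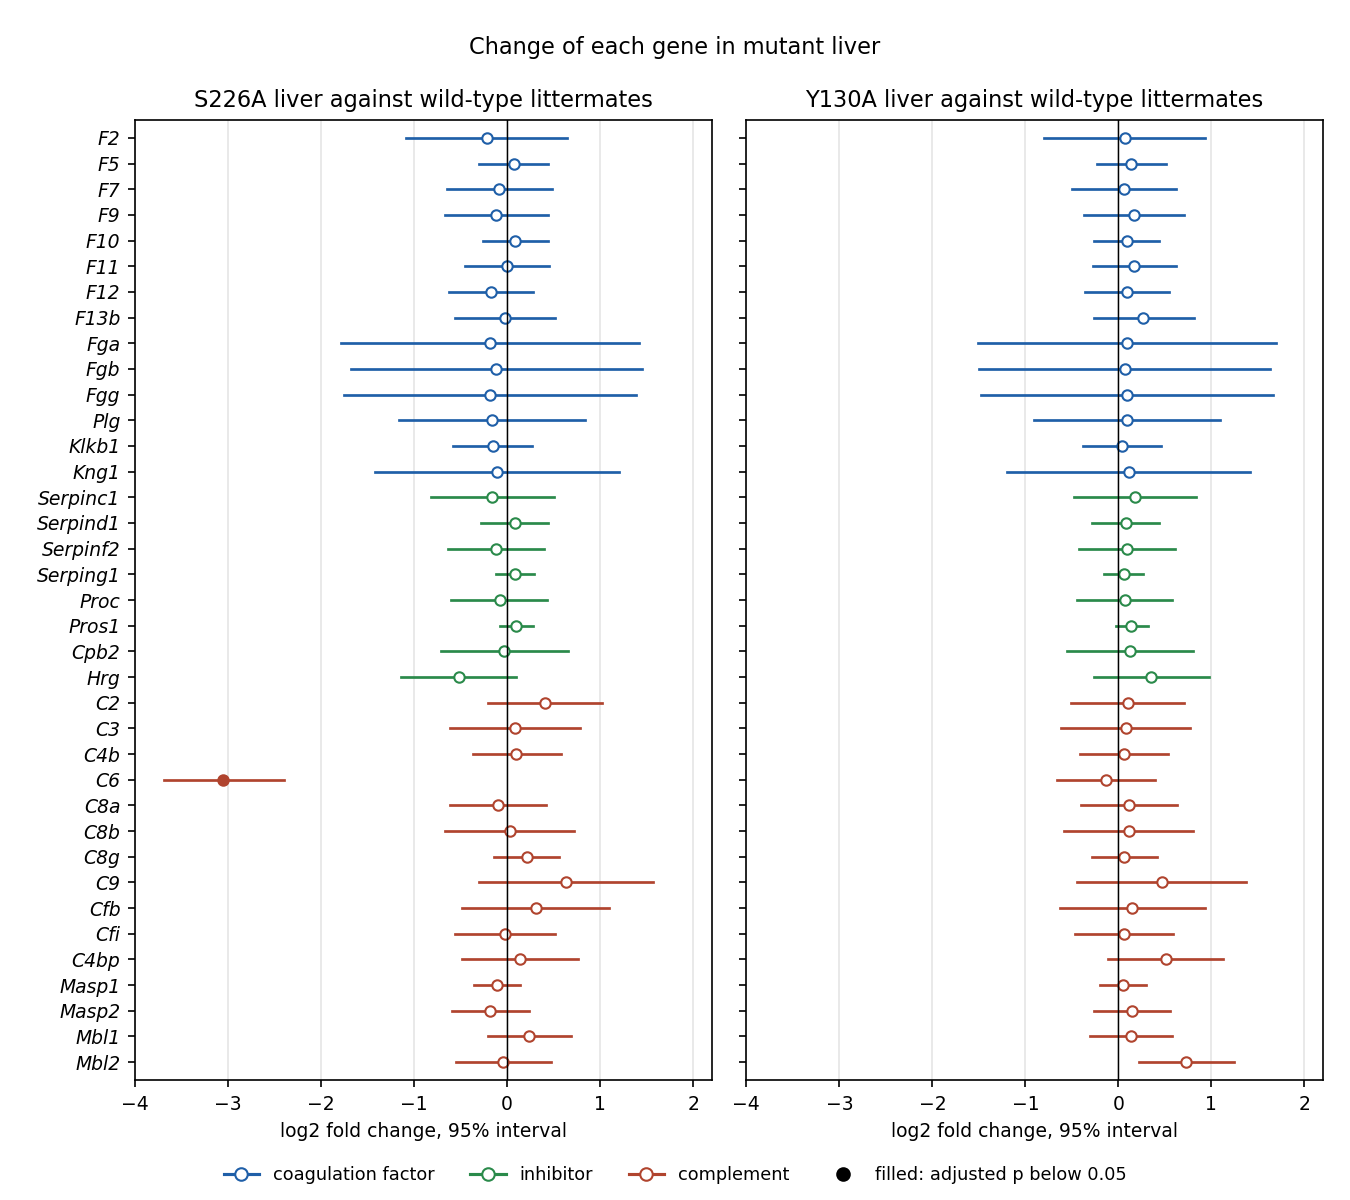
Log2 fold change of each gene with its 95% interval (edgeR, all 47 libraries) in S226A liver, left, and Y130A liver, right, coloured by class; a filled point marks an adjusted p below 0.05. C6 at -3.05 in S226A liver is the filled point, and the other intervals reach across 0 in S226A liver.

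In Y130A liver none of the 37 genes passed the test (lowest adjusted p 0.241 in edgeR), against 0.272% of all genes tested, and DESeq2 called 0 as well (1.8% of all genes). An unadjusted p below 0.05 was reached by 1 of 37, Mbl2, against 9.22% of all genes. Mbl2 was at 101, 144, 150 and 106 CPM in Y130A and at 82.6, 56.6, 116 and 46.97 CPM in wild type, with overlap (log2 fold change 0.73, 95% interval 0.22 to 1.24). Of the 37 changes 36 were above 0, with a median of 0.09, beside 0.00 over all genes. Within litters 8 genes were higher in 4 of 4 (C8a, C9, F11, F13b, F2, Kng1, Proc and Serpinc1) and 0 were lower in 4 of 4, and none was called with litter as a block. The shares of all genes for these counts are not given, so the counts are not read as a result about the members. The differences ran from small ones, as for F2 (0.01 to 0.13 on the log2 scale) and Proc (0.01 to 0.11), to those of C9 (0.06 to 1.16). All members were measured in the same 8 libraries, in which the hepatocyte markers summed to 255500 to 284500 CPM in Y130A and 243500 to 282800 CPM in wild type. F11 did not overlap, at 329, 359, 356 and 333 CPM in Y130A against 325, 319, 303 and 275 CPM, where 2.35% of all genes did not. Its log2 fold change of 0.17 had an adjusted p of 0.933 in edgeR. In a fit of the 16 livers none was called, and 5 of 37 had an unadjusted p below 0.05 (Mbl2, F13b, Serpinc1, C4bp and F11, all higher; lowest adjusted p 0.868 in edgeR), beside 3.91% of all genes, and 34 of 37 intervals lay within 2-fold and 32 within 1.5-fold of no change.

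The wild-type livers of both sets were compared with each other, S226A litters minus Y130A litters, to see how far controls differ. Fgb (11610 to 12520 against 15840 to 20250 CPM), Fga, Fgg, Cfi, C8b, F10, Mbl1 and Cpb2 were lower without overlap and C2 was higher, 9 of 37 where 10.7% of all genes did not overlap. By the fit across all libraries 0 of 37 were called (13.1% of all genes were) and 4 had an unadjusted p below 0.05 (28.0% of all genes); DESeq2 called 0 (14.5% of all genes). In the fit of the 16 livers 5 were called, all lower, C8b (-0.73), Fgb (-0.49), Mbl1 (-0.35), Cfi (-0.33) and F10 (-0.31), against 5.13% of all genes. Litter set and sequencing depth cannot be told apart here, so each mutant is read only against its own littermates.

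Beyond the 37 genes, 11 further complement genes changed in S226A liver and 19 did not pass the test. Of the 30 tested, 6 were lower and 5 higher, beside 5.54% and 6.14% of all genes. C1qa, C1qb and C1qc, the chains of the recognition protein of the classical route, were lower by 3.26, 2.18 and 2.79 on the log2 scale (C1qa 7.38 to 12.5 CPM against 77.8 to 96.4 CPM). Fcna, a ficolin, was lower by 2.46 and Cfp, properdin, by 0.52, and Vsig4, a complement receptor of macrophages, had 0 reads in all 4 S226A livers against 13.5 to 19.7 CPM.

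Those that were higher were Fcnb by 1.65, another ficolin, C5ar1 by 1.21, the receptor of C5a, Itgb2 by 1.16 and Itgam by 1.13, the chains of complement receptor 3, and Clu by 0.54, an inhibitor of the membrane attack complex. The granulocyte and macrophage sums given above moved in the same livers, and their part was not tested. Of 26 further genes of coagulation and clot dissolution, 4 were higher: F13a1, the enzyme that cross-links fibrin, by 1.25, Plaur by 1.08, F2rl1 by 0.85 and Thbs1 by 0.57. F8, the factor lacking in hemophilia A, was lower by 0.45. In Y130A liver 0 of 30 and 0 of 26 were called.

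In lung most of the 37 genes were far below their level in liver, the fibrinogen genes among them. The summed fibrinogen message was 22.1, 95.01, 14.1 and 1.70 CPM in the wild-type lungs of the S226A litters and 2.14, 44.3, 24.9 and 3.72 CPM in S226A lungs. For the Y130A litters it was 68.5, 34.0 and 54.1 CPM in wild-type lungs and 312, 12.9, 39.9 and 60.3 CPM in Y130A lungs. Y130A lung 1, the highest, also held the most of the 20 hepatocyte markers, 1706 CPM, and wild-type lung 2 of the S226A litters, the next, held 691 CPM. The 3 lungs with the least fibrinogen held 124 to 151 CPM.

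In lung and brain many of the 37 had too few reads to test. A mean of 10 reads or more over the libraries compared was reached by 25 of 37 in S226A lung, 33 in Y130A lung, 18 in S226A brain and 23 in Y130A brain, so that a lack of calls among the others says nothing about them. None was called in S226A lung or Y130A lung by edgeR, where 1.88% and 0.0178% of all genes were, and 5 and 8 had an unadjusted p below 0.05, beside 16.2% and 2.92% of all genes. DESeq2, which called 3.81% and 0.101% of all genes there, called 2 members in S226A lung, F7 (-1.03) and Cfb (3.72, with at most 0.233 CPM in any library), and 1 in Y130A lung, Mbl2 (3.64, at most 0.668 CPM). In Y130A lung 35 of 37 changes were above 0, with a median of 0.69, and the hepatocyte markers had a median of 0.88, but without Y130A lung 1 it was 18 of 37, with a median of -0.01. C3, Serping1, Pros1 and C6 were at 11.6 CPM or more in every lung library. Pros1 gave 0.18 in S226A and 0.00 in Y130A lung and Serping1 gave 0.00 and 0.13. C6 stood at 14.34, 25.55, 28.48 and 21.32 CPM in Y130A lung against 11.57, 19.51 and 17.76 CPM in its wild type, with overlap. The wild-type lungs of the S226A litters, at 21.84 to 38.64 CPM of C6, did not overlap those of the Y130A litters. In brain 0 of 37 were called in either mutant (0.243% and 0.00592% of all genes), with 1 and 0 at an unadjusted p below 0.05 (2.27% and 2.22% of all genes), and DESeq2 called 0 in both (0.391% and 0.0356% of all genes).

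**Figure D5:**
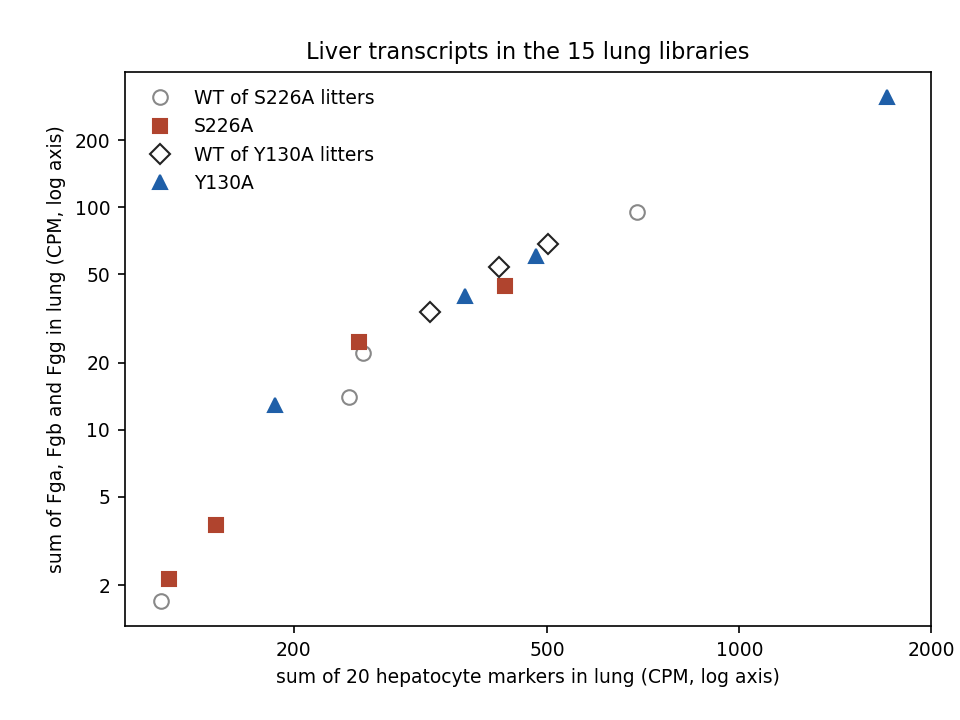
Summed fibrinogen message (CPM, log axis) against the sum of 20 hepatocyte markers (CPM, log axis) in each of the 15 lung libraries, marked by genotype and litter set. Y130A lung 1 is highest on both axes, at 312 and 1706 CPM, and the 3 lungs with the least fibrinogen lie at 124 to 151 CPM of hepatocyte markers.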

How the data were processed

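RNA-seq libraries of liver, lung and brain of E18.5 embryos were analysed from 1 table of read counts on genes that the authors deposited without normalization. Per their methods and the labels, reads were trimmed with Trim Galore 0.6.5, aligned to GRCm38.p6 and counted with STAR 2.6.0b on GENCODE M19, and tested with DESeq2; the strand setting of the counts is not given in the sources used here. Groups came from the sample titles and genotype labels. The members and gene lists were chosen with earlier results of these data known.

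edgeR 4.0.16 (R 4.3.3) was fitted to all 47 libraries with 1 coefficient a group, TMM normalization and filterByExpr (count of at least 10, sum of at least 15), which left 16892 of 20456 genes, and its quasi-likelihood test was adjusted by Benjamini-Hochberg over all of them; a gene was called at an adjusted p below 0.05. CPM are TMM-scaled; FPKM are CPM over exon length in GENCODE M21, in which 35 of 37 members have the same gene version. Errors are SD over libraries or SE of log2 fold changes. Differences within litters and pooled SDs were taken on the log2 scale after 0.5 CPM was added to each value. All 37 members are named, with values by library for those called, for fibrinogen and C8 chains, and for those near Daxx. F2, Hrg, C9, Mbl2, F11 and the summed fibrinogen of lung were added after their values were seen, as were the fit of 16 livers, the fit without the squamous livers, and the comparison of liver with lung changes.

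The first number of each title was read as the litter, which the titles do not say, and the paper states that samples were matched by litter. Mutant and wild type were paired on this reading. Residuals of littermates correlated with a median r of 0.056 in liver (above 0.1 in 2 of 8 pairs), 0.183 in lung and 0.137 in brain. Replicate counts differed by a chi-square of 4.09 or more per degree of freedom, so no library repeats another. Embryos of 1 group were separate animals. Tissues mostly came from the same embryos, and the fit across all 47 libraries took them as independent, also where tissues were compared. The procedure was tested on simulated data. Alternatives were DESeq2 1.42.0, RLE size factors, no filter, the libraries compared alone, litter as block, scaling to hepatocyte markers, thinning of the Y130A litters, stricter criteria and leaving out each library. Counts limit precision where a gene has few reads; intervals cover the spread between libraries.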

Additional observations from a re-analysis of the deposited data

Results flagged for a closer look

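C6 was the member whose change differed between groups. Its change in S226A liver minus that in Y130A liver was -2.91 (12.6 to 1.56 CPM against 11.3 to 10.4 CPM; adjusted p 6.26e-06, edgeR's quasi-likelihood test), and its change in S226A liver minus that in S226A lung was -3.16 (30.9 to 33.5 CPM in lung; adjusted p 6.14e-07 in edgeR).

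In 5 of 148 groups of 4 livers, 1 library stood apart from the rest by Dixon's ratio (critical value 0.829), where chance flags about 1 group in 20. F10 was at 522 CPM in wild-type liver 3 of the S226A litters against 500 to 504 CPM in the others (ratio 0.849). Serpinc1 was at 1840 CPM in wild-type liver 1 of the Y130A litters against 1591 to 1619 CPM (0.887). Cfi was at 880 CPM in wild-type liver 2 of the S226A litters, which held squamous transcripts, against 770 to 783 CPM (0.882). Masp2 was at 126 CPM in S226A liver 2 against 163 to 168 CPM (0.884), and Mbl2 was at 112 CPM in wild-type liver 3 of the S226A litters against 89.98 to 93.7 CPM (0.831).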

How the results depend on the processing

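C6 was called in S226A liver under every alternative run (log2 fold change -3.44 to -2.74, highest adjusted p 0.000162 in edgeR or DESeq2), as it was in the interaction (-3.31 to -2.61, 0.000409) and in the comparison of liver with lung changes (-3.56 to -2.86, 0.00107). The counts of members called moved in these cases. In S226A liver they were 2 with litter as replicate block (C6 and Hrg) and 3 with scaling to hepatocyte markers (C6, F10 and Mbl1). With DESeq2 they were 2 in S226A lung (Cfb and F7), 1 in Y130A lung (Mbl2) and 3 in the comparison of liver with lung changes (C6, Klkb1 and Cfb). Between the wild-type livers of the sets they were 5 with only the libraries compared (C8b, Cfi, Cpb2, F10 and Fgb) and 5 with only the 16 livers. They were 2 with scaling to hepatocyte markers (C8b and Fgb) and 2 without the squamous livers (C4b and Hrg, both higher). The fit of the 16 livers called 5.13% of all genes between these wild-type livers. The shares in the other settings are not given, so those counts cannot be set beside all genes. The cause of these moves was not tested.

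Leaving out 1 library gave 0 to 1 in S226A lung (1, Klkb1, without wild-type lung 2) and 0 to 2 between the wild-type livers. C4b was called there without wild-type liver 2 of the S226A litters, and C4b and Hrg without wild-type liver 3 of the Y130A litters. The shares of all genes in these fits are not given. No other count moved, the comparison of liver with lung changes not being among those counted. The litter block changed no other call in liver, lung or brain. By the stricter criteria (adjusted p below 0.01, log2 fold change beyond 1, SE below 1) 36 members differed between wild-type liver and lung. The share of all genes that met them is not given, and 80.1% of all genes were called there at an adjusted p below 0.05. Uncalled members changed sign under at least 1 alternative: 18 in S226A liver, reaching at most 0.13 from 0, of which 8 did so with scaling to hepatocyte markers alone, which shifts all genes alike, 9 in Y130A liver (at most 0.11), 18 in the interaction (9 of them with that scaling alone; C4b to -0.23 without the squamous livers) and 20 in the comparison of liver with lung changes (C8b to -2.69 without wild-type lung 2 of the S226A litters). Members at trace levels in lung and brain are limited by their few reads.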
